A study of Mus musculus with 6 samples.

Results

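Autophagy and mitophagy genes were examined among the genomic sites of thyroid hormone receptor α (TRα) in mouse gastrocnemius, a calf muscle. The genes were Atg7, Pink1, Park7 and Mfn2, chosen by name, and a peak was counted for a gene when the annotation text attached to it in the deposited tables named that gene's protein. By this rule 85 of 491681 peaks belonged to the 4 genes, which were 2.23% of the 3812 peaks to which any gene could be attached. Atg7 held 75 of the 85, Pink1 5, Mfn2 3 and Park7 2. The study precipitated TRα-bound chromatin with an antibody and sequenced it (ChIP-seq) in muscle of 3 ages, 6, 15 and 21 months, with 2 mice per age and no treatment named. Peaks were called separately for each mouse against its input, which is chromatin sequenced without the antibody step. The sources used here do not give strain, genotype or sex. Whole muscle was cross-linked and sheared, so muscle fibres and the other cells of the tissue are not told apart, and no expression marker was measured.

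Autophagy encloses cell contents in a double membrane and delivers them to the lysosome, and mitophagy is its form for damaged mitochondria. ATG7 is the activating enzyme of the pair of ubiquitin-like conjugation systems that build the autophagosome membrane. PINK1 is a kinase that accumulates on depolarised mitochondria and marks them for removal. Mitofusin 2, encoded by Mfn2, fuses outer mitochondrial membranes, and DJ-1, encoded by Park7, protects against oxidative stress. In skeletal muscle these genes serve the turnover of mitochondria and proteins, and thyroid hormone is known to stimulate both mitochondrial biogenesis and autophagy there.

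The RefSeq promoter table held 6 entries for the 4 genes, and those of Atg7 and Pink1, the genes with peaks at 1 place in several mice, are shown as the regulatory sequence nearest to a gene start. Each is the 250 bases before an annotated start, in build GRCm38.p6, written 5′ to 3′ on the gene's strand. A match to the receptor half-site AGGTCA on either strand would be in capitals.
Atg7, chr6:114670846-114671095, plus strand: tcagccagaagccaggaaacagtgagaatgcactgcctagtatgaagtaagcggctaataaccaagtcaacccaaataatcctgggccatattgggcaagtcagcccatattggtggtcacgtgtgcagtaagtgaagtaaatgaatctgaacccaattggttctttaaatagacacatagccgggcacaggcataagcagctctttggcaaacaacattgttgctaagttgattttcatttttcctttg
Pink1, chr4:138326297-138326546, minus strand: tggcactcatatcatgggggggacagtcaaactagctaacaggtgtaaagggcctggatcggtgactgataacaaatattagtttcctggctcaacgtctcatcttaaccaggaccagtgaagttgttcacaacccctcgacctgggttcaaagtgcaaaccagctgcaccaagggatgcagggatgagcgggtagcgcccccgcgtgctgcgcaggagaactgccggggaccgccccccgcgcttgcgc
Neither sequence has a capital, and 0 of the 6 entries held AGGTCA or its reverse TGACCT. Among all 32851 entries, 14.0% of windows of this length held it. GC content was 43.2% for Atg7 and 57.2% for Pink1, against a median of 52.4% over all entries. The peaks are on GRCm39, so their distances from these starts were not analysed here, nor was their place in exons, introns or UTRs.

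Atg7 peaks were found in all 6 mice, and the gene ranked second by number of peaks among the 395 genes that could be named. The 6-month mice had 12 and 19 Atg7 peaks, the 15-month mice 12 and 10, and the 21-month mice 9 and 13, with replicate 1 before replicate 2. The highest number was in replicate 2 at 6 months and the lowest in replicate 1 at 21 months, and the ages overlapped. Of the 395 named genes, 18.5% had peaks in all 6 mice, and the median gene had 6 peaks over the 6 lists. Peaks in all 6 mice were common among genes with many peaks, as most of the 54 named genes with at least 20 peaks had them. Grin2a, an NMDA receptor subunit, had more peaks, 95, while the next genes below were Foxp2, a forkhead transcription factor, with 65 and Fzd1, a Wnt receptor, with 62. The other members were sparse, with no peak in replicate 1 at 6 months for any of them.

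The lists differed in length, from 29405 to 106152 peaks, so the counts were also set against list length. Per 10000 peaks the 6-month mice had 1.52 and 1.79 Atg7 peaks, the 15-month mice 1.21 and 3.40, and the 21-month mice 0.982 and 1.51. Replicate 2 at 15 months stood above the other 5 mice. Its list was the shortest, yet it held about as many Atg7 peaks as its age mate. Atg7 made up 4.05% of the peaks with a gene name there, and 1.42% to 2.24% in the 5 others. The 6-month mice had a mean rate of 1.65 ± 0.192 (SD, n = 2), the 15-month mice one of 2.30 ± 1.55 (SD, n = 2), and the 21-month mice one of 1.25 ± 0.375 (SD, n = 2). The rate showed no trend with age beyond the spread between mice, with Pearson's r of -0.15 (two-sided exact permutation test over 90 assignments of ages, p = 0.8) and Spearman's rho of -0.60 (exact permutation p = 0.267). This was the 1 trend tested, so adjustment leaves both p-values as they are. Without the mice of 6 months, which lie farthest from the median age, r was -0.55. Without replicate 2 at 15 months r was -0.68 (exact permutation p = 0.2), and without replicate 1 at 21 months it turned to 0.085 (exact permutation p = 0.933).

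**Figure D1:**
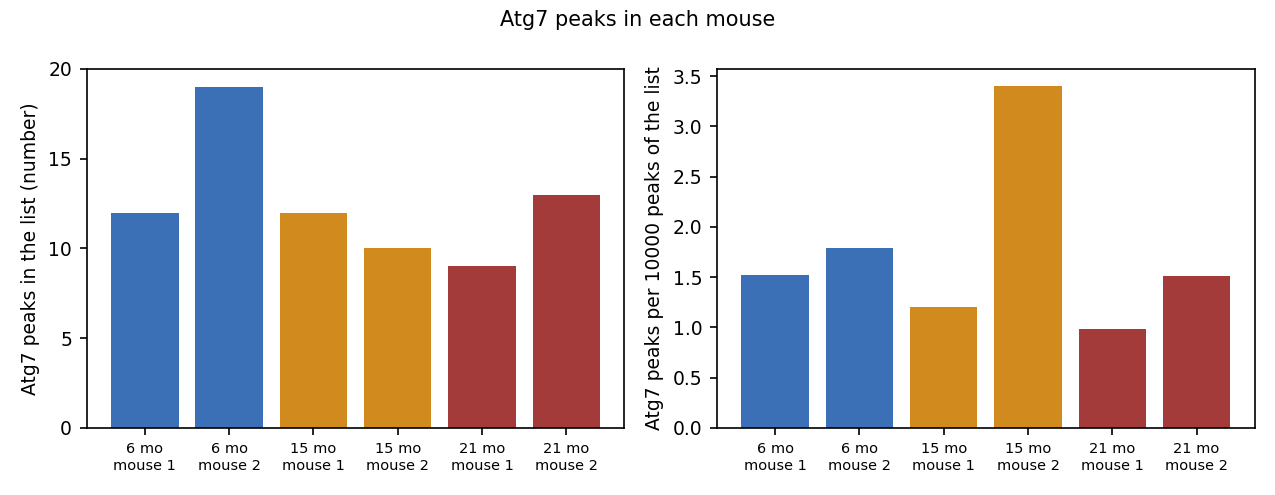
Bars show, for each mouse, the number of Atg7 peaks in its list (left) and the same number per 10000 peaks of that list (right), coloured by age in months (mo). The numbers run from 9 to 19 with ages overlapping, and the rate of replicate 2 at 15 months, 3.40, is above the other 5 mice.

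The Atg7 peaks were spread over a long stretch of chromosome 6, from 114498808 to 114663528 (GRCm39), 165 kb in all. All 75 peaks of the 6 lists inside this stretch carried the Atg7 text, and no peak there carried another name or none. The nearest peak before it ended 2.99 kb away and the nearest after it began 14.0 kb away, and neither had a gene name. The extent of the stretch, called the locus below, thus follows the annotation text and need not match the gene itself. Its place relative to the start and end of Atg7 was not analysed here, and parts of it may lie outside the gene. In the RefSeq gene table, whose build differs and which was used only for gene order, the protein-coding neighbours of Atg7 are Hrh1 and Vgll4. Peaks covered 13.2% of the stretch in at least 1 list, 1.77% in at least 2 lists and 5 bp in 3 lists. Their widths ran from 201 to 928 bp, with a median of 278 bp.

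Within single mice the Atg7 peaks lay kilobases apart, and the stretches they left empty differed from mouse to mouse. Neighbouring summits lay a median of 12.6 and 6.72 kb apart in the 6-month mice, 7.01 and 5.80 kb in the 15-month mice, and 6.05 and 11.5 kb in the 21-month mice. Replicate 1 at 15 months had a gap of 76.6 kb in the middle of the locus, where its age mate had most of its 10 peaks. Replicate 2 at 15 months and replicate 1 at 21 months had 0 peaks in the last of 5 equal sections. Cut into these sections of 32.9 kb, the locus held 18, 12, 20, 13 and 12 peaks from first to last over the 6 mice. The longest parts without a peak in any mouse were adjacent, at 114618496 to 114629274 (10.8 kb) and 114629481 to 114639803 (10.3 kb), with a single peak between them.

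**Figure D2:**
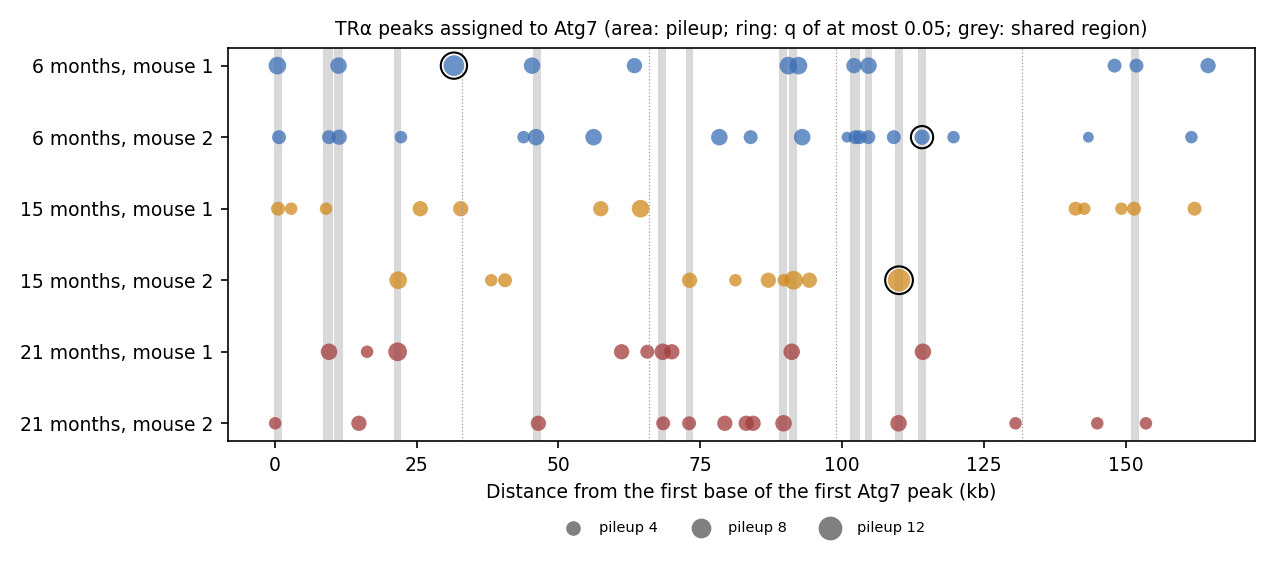
Each point is the summit of an Atg7 peak, placed by its distance in kb from the first base of the first Atg7 peak, with 1 row per mouse, point area for pileup, a ring for q of at most 0.05 and grey bands for the 14 regions shared by several mice. Dotted lines mark the 5 sections, and 15 months mouse 1 has an empty middle while 15 months mouse 2 and 21 months mouse 1 have no point in the last section.

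The locus was denser in peaks than chromosome 6 as a whole in every mouse. Per 100 kb the 6-month mice had 7.29 and 11.5 Atg7 peaks, the 15-month mice 7.29 and 6.07, and the 21-month mice 5.46 and 7.89. Over the density of chromosome 6 in the same list, these were 2.37 and 2.86 times for the 6-month mice, 1.88 and 5.24 times for the 15-month mice, and 1.54 and 2.33 times for the 21-month mice. The edges of the stretch were set by the outermost peaks, which raises its density. Of 14928 windows of the same length laid end to end on the autosomes, 23 (0.154%) held 75 or more peaks over the 6 lists, and the median window held 32. In single mice, windows with at least as many peaks as Atg7 were less rare in some. They made up 1.96% and 0.147% in the 6-month mice, 4.07% and 0.0938% in the 15-month mice, and 17.2% and 1.00% in the 21-month mice. Of the 10 windows next to the locus, 5 on each side, none held more than 53 peaks. The Atg7 window held more peaks than each of these 10 in 4 of the 6 mice. The exceptions were both mice of 21 months, with 9 peaks against up to 12 and 13 against up to 14.

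Local input background was also higher at the locus than in most of each list, with 89.7% to 93.8% of the list's peaks below the Atg7 median. The local input background, recovered for each peak from its pileup and fold, had a median of 1.57 times the lowest value of the list over the Atg7 peaks. It was 1.48 and 1.84 times in the 6-month mice, 1.45 and 1.78 times in the 15-month mice, and 1.59 and 1.52 times in the 21-month mice, while the medians of the whole lists were 1.00 to 1.09 times. These Atg7 medians were above those of the 10 neighbouring windows in 6 of 6 mice. Over all mice the 10 windows had medians of 1.00 to 1.09 times. Of the 54 named genes with at least 20 peaks, Atg7 had the highest median background and the highest median rank by pileup. Along the locus the last section differed from the others. The median background was 1.57, 1.80, 1.69 and 1.59 times in the first 4 sections and 1.08 times in the last. The last section had peaks of 4 mice only, 2 to 5 in each, with medians of 1.00 and 1.42 times in the 6-month mice, 1.07 times in replicate 1 at 15 months and 1.11 times in replicate 2 at 21 months. In each of these 4 mice this was below its own median over the first 4 sections. Without any single mouse the median for the locus was 1.53 to 1.60 times. The part of this higher input in the number, pileup and sharing of Atg7 peaks was not tested.

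**Figure D3:**
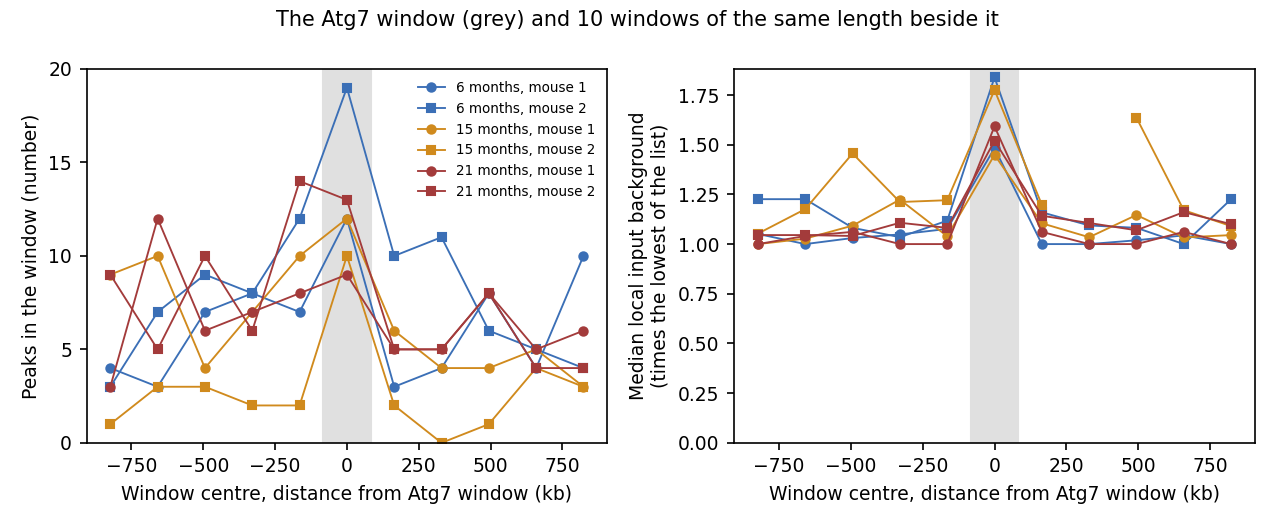
Lines show, for each mouse, the number of peaks (left) and the median local input background of the peaks as a multiple of the lowest in the list (right) in the Atg7 window (grey, at 0 kb) and 10 windows of the same length beside it; a window without a peak has no background point. In the right panel all 6 mice are highest in the grey window, at 1.45 to 1.84 times, and in the left panel 4 of 6 are.

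The Atg7 peaks were deep for their lists but ordinary in fold over input. Pileup, which counts the sequenced fragments that cover a summit, ran from 3 to 13 with a median of 6. By pileup the median Atg7 peak stood between the 76.4th and the 96.4th percentile of its list. By fold over input it stood at percentile 48.8 and 40 in the 6-month mice, 74.9 and 20.7 in the 15-month mice, and 67.7 and 45.9 in the 21-month mice. Peaks of any gene or none with a local background in the middle range of the Atg7 peaks, 1.25 to 1.93 times the lowest, numbered 56073. Their median percentile was 76.4 by pileup and 37.7 by fold. Of the 75 Atg7 peaks, 35 (46.7%) had a fold above the median of their list, against 41.9% of all gene-named peaks. Peaks with q of at most 0.05 numbered 3 of 75 (4%), against 1.99% of gene-named peaks and 2.21% of all peaks.

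The 3 Atg7 peaks with q of at most 0.05 lay at different places. Replicate 1 at 6 months had one at chromosome 6, 114530210 to 114530663, with a pileup of 11, a fold of 4.16 and q of 0.0264. Replicate 2 at 6 months had one at 114612670 to 114613151, with a pileup of 6, a fold of 4.29 and q of 0.0435. Replicate 2 at 15 months had one at 114608705 to 114609050, with a pileup of 13, a fold of 4.31 and q of 0.00284. The first was found in no other mouse. The second overlapped a peak of replicate 1 at 21 months and the last a peak of replicate 2 at 21 months, neither with q of at most 0.05. No Atg7 peak at 21 months reached that limit.

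**Figure D4:**
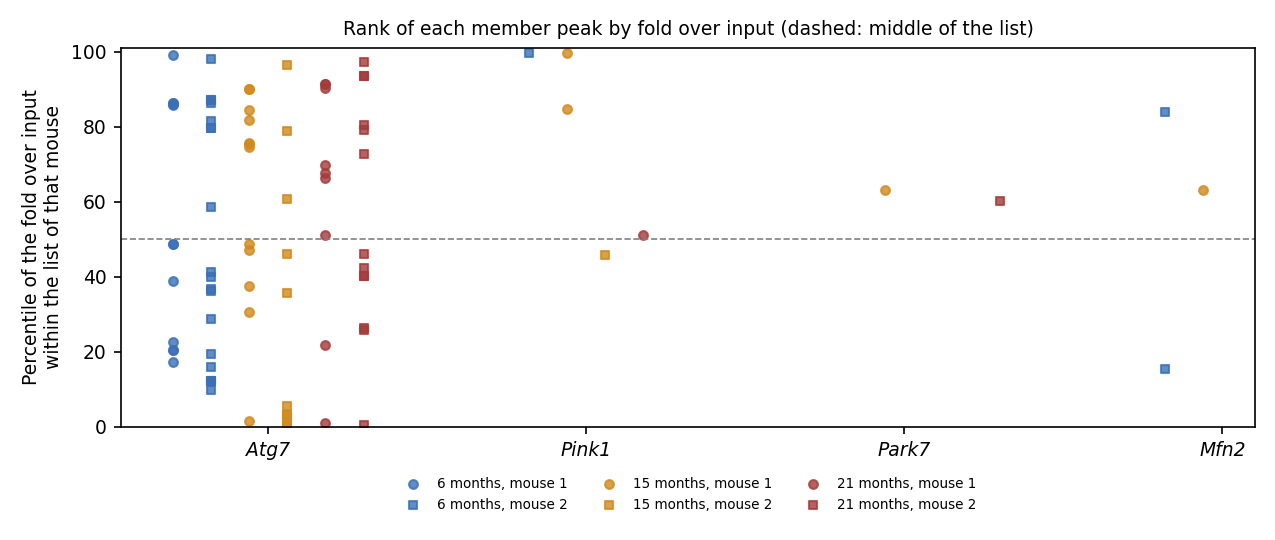
Each point is a peak of Atg7, Pink1, Park7 or Mfn2, placed by the percentile of its fold over input within the list of its mouse, with colour for age, shape for replicate and a dashed line at the middle of the list. Atg7 points fill the whole range, and the pair of Pink1 points at the top are the peaks at 99.6 in replicate 2 at 6 months and replicate 1 at 15 months.

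Many Atg7 peaks lay where another mouse had one too. Merging overlapping peaks gave 59 Atg7 regions, of which 14 (23.7%) held peaks of several mice, against 5.52% of regions of all named genes and 6.4% of all regions. Atg7 and Pink1 each had at least 1 such region, as had 28.4% of the named genes. These 14 held 30 of the 75 peaks (40%), against 11.1% of gene-named peaks and 12.8% of all peaks. Among the 54 genes with at least 20 peaks, Drd1, a dopamine receptor, and Dlg3, a synaptic scaffold, had a higher share, 47.8% each, and the median was 8.70%. Grin2a had 21.1%, Fzd1 22.6% and Foxp2 6.15%. Peaks of any gene or none whose background lay in the middle range of the Atg7 peaks, 1.25 to 1.93 times the lowest of the list, were shared in 17.5% of cases. Of the autosomal windows of the length of the locus, 52 had a median background at least as high as there, with no upper limit. Their median share was 42.4%, beside 40% for Atg7. With lists cut to equal length the share for Atg7 was 25% and the number of shared regions 5. The share over all peaks was not computed for the cut lists. The number was 9 without replicate 2 at 6 months, 9 without replicate 2 at 15 months and 9 without replicate 2 at 21 months. With q of at most 0.05 in every peak there were 0 such regions.

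**Figure D5:**
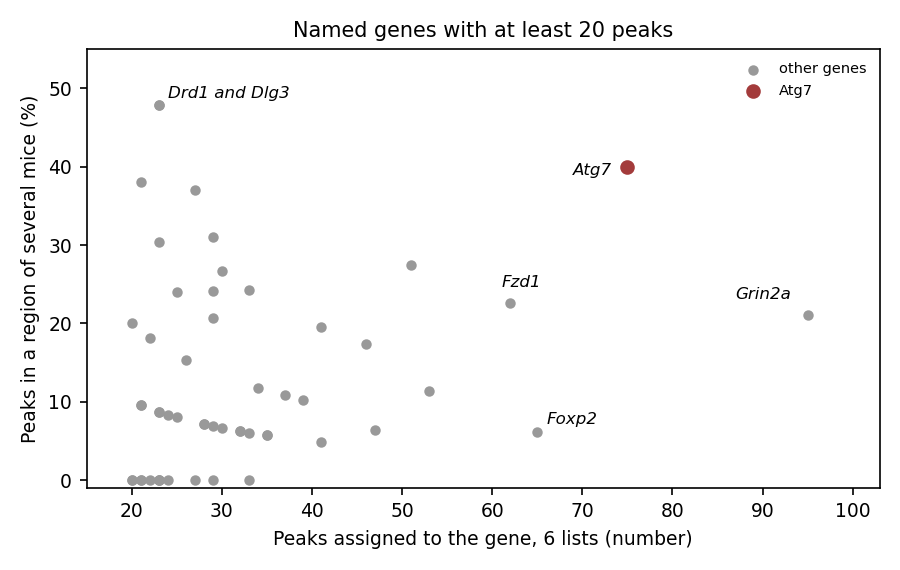
Each point is a named gene with at least 20 peaks, placed by its number of peaks over the 6 lists and by the percentage of them in a region with peaks of several mice. Atg7 (red) is at 75 peaks and 40%, Drd1 and Dlg3 are higher at 47.8% with 23 peaks each, and Grin2a, Fzd1 and Foxp2 are lower.

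The shared Atg7 regions joined mice of different ages as well as mice of 1 age. Regions with 3 mice numbered 2 of the 59, against 0.668% of all regions with at least 3. The region at 114499105 to 114499638 had both mice of 6 months and replicate 1 at 15 months. It was a chain, in which the peaks of the 6-month mice each overlapped the 15-month peak but not each other. The region at 114507729 to 114508683 had replicate 2 at 6 months, replicate 1 at 15 months and replicate 1 at 21 months. Its peaks all overlapped one another, but those of 15 and 21 months shared only 5 bp. The summits in it lay up to 520 bp apart. In the other 12 regions the pair was of the same age in 4. These were 3 of the 6-month pair and 1 of the 21-month pair, and the 15-month pair shared 0. Mice of 1 age had 1.33 ± 1.53 overlapping peak pairs (SD, n = 3 pairs of mice), and mice of different ages had 1.08 ± 1.08 (SD, n = 12 pairs of mice). These means differed by less than either SD. The pairs reuse the same mice, so they are not independent, and the counts are not set against the number of Atg7 peaks of each mouse. Replicate 2 at 15 months and replicate 2 at 21 months overlapped at 3 places, 30% of the peaks of the former and 23.1% of the latter.

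The closest matches between mice at Atg7 were a few nearly coincident peaks. At 114603317 to 114603648 the peaks of both 6-month mice shared 321 bp and their summits lay 29 bp apart. At 114612635 to 114613151 the peaks of replicate 2 at 6 months and replicate 1 at 21 months shared 471 bp, at fold percentiles of 98.1 and 90.3. At 114608648 to 114609050 the peaks of replicate 2 at 15 months and replicate 2 at 21 months shared 338 bp, at percentiles of 96.3 and 93.5. At the other end, a region at 114600708 to 114601493 rested on an overlap of 28 bp and one at 114650220 to 114650720 on 21 bp. The smallest overlap was the 5 bp within the region at 114507729 to 114508683. Requiring an overlap of at least 50% of the shorter peak left 11 shared regions, and allowing peaks up to 500 bp apart gave 17.

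Pink1 had the highest folds over input of the 4 genes. Its 5 peaks lay within 6.19 kb, from 138059005 to 138065190 on chromosome 4 (GRCm39). The 6-month mice had 0 and 1, the 15-month mice 2 and 1, and the 21-month mice 1 and 0. Peaks in both mice of an age were therefore present at 15 months alone, where 32.9% of the named genes had them, against 43.3% at 6 months and 43% at 21 months. Replicate 2 at 6 months had a peak at 138061721 to 138061921, with a pileup of 12, a fold of 6.01 and q of 7.37e-06. Replicate 1 at 15 months had a peak at 138061723 to 138061921, with a pileup of 9, a fold of 5.58 and q of 0.000224. Both stood at percentile 99.6 of their list by fold.

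These Pink1 peaks shared 199 bp, and their summits were 1 bp apart, 19 and 16 bp from the first base of the peak. Both were short, 201 and 199 bp, where the shortest peaks of the same lists had 196 and 194 bp. Regions with q of at most 0.05 in at least 2 mice made up 0.143% of all regions. The local input background was 1.84 times the lowest of the list in replicate 2 at 6 months and 1.14 times in replicate 1 at 15 months. The other 4 mice had no peak at this place. The nearest peak was 0.531 kb away in replicate 2 at 15 months, with a pileup of 5 and a fold of 3.08, and 2.17 kb away in replicate 1 at 21 months, with a pileup of 4 and a fold of 2.76. In replicate 2 at 21 months it was 14.5 kb away and in replicate 1 at 6 months 29.5 kb away, and neither of these was assigned to Pink1. The remaining Pink1 peak, in replicate 1 at 15 months at 138064877 to 138065190, had a pileup of 5 and a fold of 3.49. A peak near the cutoff of a list rests on so few fragments that its absence from another list does not show absence of binding. The overlapping pair of Pink1 peaks was not near the cutoff, and why the other 4 mice had no peak there was not tested.

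Mfn2 and Park7 had few and shallow peaks. For Mfn2 there were 2 peaks in replicate 2 at 6 months and 1 in replicate 1 at 15 months, and none at 21 months. The former lay at chromosome 4, 147990270 to 147990635 and 148001799 to 148002064, with pileups of 3 and 5 and folds of 2.34 and 3.38. The latter lay at 147994731 to 147994931, with a pileup of 4 and a fold of 2.95, at least 4.10 kb from any peak of another mouse. For Park7 there was 1 peak in replicate 1 at 15 months, at 150973099 to 150973297, and 1 in replicate 2 at 21 months, at 150971991 to 150972197. Both had a pileup of 4, with folds of 2.95 and 2.92, and they lay 0.902 kb apart. None of the 5 peaks of these genes had q of at most 0.05, and none overlapped a peak of another mouse. Pink1, Park7 and Mfn2 together had 10 peaks, and 4 of them came from replicate 1 at 15 months, without which 6 were left. That list held 819 of the 3812 gene-named peaks.

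Of a wider list of 59 autophagy and mitophagy genes, the annotation text named 4 (6.78%), against 1.80% of 21900 protein-coding genes. Atg7 was the 1 named gene of 41 in the autophagy part. In the part for mitophagy and mitochondrial dynamics 3 of 18 were named, Pink1, Park7 and Mfn2. These genes were chosen with their peaks known, so the counts are a description. The other 55 genes, among them Ulk1, Becn1, Map1lc3b, Sqstm1 and Bnip3, were not named, and their occupancy was not analysed here. A gene could be named only where its annotation text ran over into further lines, so these counts do not compare occupancy.

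The genes whose rates were most like those of Atg7 across the 6 mice were taken from the 53 others with at least 20 peaks. They were Foxp2 (Pearson's r of 0.97 over 6 mice), Thbs2, a matrix glycoprotein (0.92), and Sfrp1, a secreted Wnt antagonist (0.86), and the median over the 53 genes was -0.10. Their own highest rate was also in replicate 2 at 15 months, at 2.38, 1.02 and 1.36 peaks per 10000. Their choice by r makes this likely, since Atg7 stood out in that mouse. The rates there rest on 7, 3 and 4 peaks. A highest rate in that mouse was found in 17 of the 53 genes (32.1%), and all rates of a mouse share the length of its list. These 3 genes also had peaks in all 6 mice and median fold percentiles near that of Atg7, at 51.2, 48.8 and 48.7. Neither trait is particular to them. Most of the 54 genes with at least 20 peaks, Atg7 included, had peaks in all 6 mice, and the median of their fold percentiles was 50.6. The median local backgrounds of Foxp2, Thbs2 and Sfrp1 were lower than that of Atg7, at 1.00, 1.03 and 1.05 times the lowest of the list. Of their peaks, 6.15%, 0% and 6.25% were in shared regions.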

How the data were processed

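Peak lists of TRα ChIP-seq from 6 gastrocnemius samples, 1 per mouse, were used. The submitters' processing notes name Trimmomatic 0.36, SAMtools 1.3.1, MACS2 2.1.1.20160309 and HOMER 3, with GRCm39 and mm10 as builds. The sources used here give no aligner or caller settings. Coordinates were taken as GRCm39 from the scaffold names. Per the file headers, the authors deposited pileup as a signal and fold enrichment over input as a ratio. Columns with damaged headers were read as the −log10 p and q that the authors deposited. All are the authors' values per peak, compared within a list only.

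Overflow annotation text followed 3987 peaks, and its protein accessions, matched to RefSeq (GRCm38.p6), named a gene for 3812. Local background was (pileup + 1) / fold − 1, from which a Poisson p came within 1% of the deposited one in 100% of peaks with a computable p. Depth is known only through pileups, whose list medians were 4 or 5 fragments. Peaks sharing at least 1 bp formed a region. Only the trend with age was tested, since an exact permutation test of 2 mice against 2 cannot reach 0.05. The text names the 4 genes, named genes of a pathway list of 59 genes (1 further gene was removed from it and is not reported here), up to 2 genes next in peak number on each side of Atg7 (1 exists above), and the 3 genes with at least 20 peaks of highest r with Atg7. Drd1 and Dlg3 were added after their values were seen. Members and lists were chosen with earlier results of these data known. Alternatives varied the q limit, pileup limit, list length, rate denominator, overlap rule and mice used. Calculations used Python 3.11.15, pandas 2.3.3 and scipy 1.17.1, tested on simulated data.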

Additional observations from a re-analysis of the deposited data

How the results depend on the processing

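The trend of the Atg7 rate with age did not pass its test in any of 13 alternative settings (exact permutation p from 0.2 to 1). Leaving out each mouse in turn gave r from -0.68 to 0.085, positive only without replicate 1 at 21 months. With the replicate number as a block, r was -0.20 (exact permutation p = 0.778 over 36 assignments), which changed no call. Deviations of equal replicate numbers had correlations of 0.02, 0.04 and -0.02 between ages over 54 genes. Many of these genes had few peaks per mouse, so these values cannot tell whether equal numbers share a batch. The mean Atg7 rate was 1.73 ± 0.863 (SD, n = 6) per 10000 peaks, 3.65 ± 4.71 (SD, n = 6) among peaks with q of at most 0.05, which rests on 1 peak in each of 3 mice and 0 in the others, 2.98 with a pileup of at least 5, 0.602 per covered Mb and 219 per 10000 gene-named peaks. The last 2 are other units. Leaving out each mouse gave 1.40 to 1.89. The 14 shared Atg7 regions became 0 at q of at most 0.05, 5 with equal list lengths of 29405 peaks, and 9 to 12 without each mouse. The 10 peaks of Pink1, Park7 and Mfn2 became 2 at q of at most 0.05, 5 with a pileup of at least 5, 5 with equal list lengths, and 6 to 10 without each mouse. These limits leave fewer peaks or mice by construction. The share of Atg7 peaks in shared regions, with alternatives chosen after seeing the data, was 30.8% to 38.1% without each mouse. At list medians of 4 or 5 fragments, single peaks near the cutoff are the least reliable.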

Other observations

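Windows of the length of the Atg7 locus were compared over the autosomes for local input background and sharing. Of 14569 such windows with at least 1 peak, 52 (0.357%) had a median background of 1.57 times the lowest of the list or more, the value of the Atg7 locus. These 52 held a median of 42 peaks, of which a median of 42.4% lay in regions of several mice, where the median over all windows was 10.8%. The 23 windows with at least 75 peaks had a median background of 1.23 times, from 1.09 to 5.0, and a median share of 29.3%, and 7 of them were among the 52. A share of at least 40% was found in 121 windows (0.831%). What the DNA in these windows holds was not analysed here.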
